A study of Homo sapiens with 12 samples.

Results

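ABC transporters are membrane pumps and related proteins that share an ATP-binding cassette, the domain that gives the family its name. The members of the family described here are the genes whose symbol in the deposited table was ABC, 1 letter between A and G and a number, so that pseudogenes with a suffix and family members with other names were left out. This rule found 44 genes of 57773 features other than spike-ins. Of these, 24 passed the filter on low counts, of 13782 genes that passed in all, and 20 did not. Each gene was followed across ES-2 cells, an established human ovarian cancer derived line, that had received siRNAs against 1 of 3 RNA-binding proteins or control siRNAs.

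The siI1 cells had received siRNAs against IGF2BP1, the siI2 cells siRNAs against IGF2BP2, the siI3 cells siRNAs against IGF2BP3, and the siC cells control siRNAs, with 3 libraries in each of the 4 groups. All groups were the same line, grown in DMEM with serum, and the labels name no engineered change in any of them. The labels gave no dose or time of transfection. Nor did they say whether replicate libraries were made from different cultures, so that the p-values below reflect variation among these particular libraries, which may be technical. Total RNA was depleted of ribosomal RNA before sequencing.

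ABC proteins bind and split ATP, and most of them use it to move a substrate across a membrane. In tumour cells the family is best known for pumps at the cell surface that export drugs. Other members move sterols and phospholipids, sit in mitochondria, lysosomes or peroxisomes, or act on ribosomes and move nothing across a membrane. The IGF2BP proteins bind mRNAs and are known in cancer cells for keeping bound mRNAs from decay, in part by limiting the access of microRNAs.

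The targeted mRNA was lower in each knockdown. IGF2BP1 averaged 11.1 ± 0.539 FPM in siI1 cells and 43.9 ± 4.52 FPM in siC cells (SD, n = 3 each), which is 25.2% of the control level. IGF2BP2 averaged 13.4 ± 5.1 FPM in siI2 cells and 80.0 ± 4.72 FPM in siC cells, or 16.8%. IGF2BP3 averaged 4.52 ± 1.76 FPM in siI3 cells and 23.5 ± 5.18 FPM in siC cells, or 19.2%. IGF2BP3 also stood at 64.7% of the control level in siI1 and 63.5% in siI2 cells. Each of these libraries lay below each siC library, but neither difference passed (limma adjusted p = 0.19 and 0.2). IGF2BP1 stood at 127% in siI2 and 88.7% in siI3 cells, and IGF2BP2 at 111% in siI1 and 129% in siI3 cells, without passing. FPM is the authors' count of fragments scaled to library size, not divided by gene length. The values show that each library size was also multiplied by a factor, of 0.82 to 1.25. This factor was 0.82 in siC replicate 2, and 1.11 and 1.13 in siC replicates 1 and 3. The libraries held 3274590 to 11110357 reads, and a single read was worth 0.108 to 0.243 FPM. A gene with no read in a library was therefore below 0.32 to 0.73 FPM there, the limit set by 3 reads, which covers counting error only.

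The control libraries did not form 1 uniform group. In siC replicates 1 and 3, genes rich in G and C were lower than in the mean library, with slopes of -0.459 and -0.432 on the log2 scale per 10 percentage points of transcript GC content. The slope was 0.025 in siC replicate 2 and lay between -0.093 and 0.211 in the 9 knockdown libraries. Differences of members from siC are therefore also given after a correction for GC content and length. For members called against siC, the size of the difference from siC replicate 2 alone is given too, an alternative chosen after the data were seen. There the control is 1 library, the spread comes from the other groups, and 40 genes passed against it for siI1 cells, 1 for siI2 cells and 15 for siI3 cells, so whether a member passed is not read from it. Uneven replicates were not confined to siC. Read counts of libraries within a group were compared by chi-square per degree of freedom. It was 61.6 and 72.4 for siI3 replicate 3 against siI3 replicates 1 and 2, and 7.46 between those. Among the siC libraries it was 69.1, 34.3 and 23.1. Of 10 markers of ovarian carcinoma cells, 6 lay above 1 FPM on average, with KRT7 at 650 and VIM at 522 FPM, while EPCAM averaged 0.182 and PAX8 1.11 FPM. Their summed level was 1714 to 1881 FPM in siI1, 978 to 1543 in siI2, 966 to 1042 in siI3 and 1550 to 1905 in siC libraries. None of 7 leukocyte and none of 4 erythroid markers reached 1 FPM on average. Of 5 endothelial markers found, CDH5 averaged 104 FPM, VWF 1.01 FPM and the others lay below 1 FPM, and their sum was 134 to 151 FPM in siI1, 108 to 127 in siI2, 98.5 to 110 in siI3 and 55.5 to 73.1 in siC libraries. Of 4 hepatocyte markers, SERPINA1 alone passed 1 FPM and TTR was at 0. The part of these markers in the results on ABC genes was not tested. In bulk RNA, fewer cells with a transcript and less of it per cell cannot be told apart.

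The promoters of 3 members whose levels differed between groups are printed here. They are ABCB8, which was lower in siI1 cells, and ABCA1 and ABCB1, which were lower in siI3 cells. ABCB1 was scarce and passed the filter on low counts only through the siC libraries, so its difference is a description. The sequences are from RefSeq on GRCh38.p14 and run from 250 bases before to 50 bases after an annotated start, 5′ to 3′ on the gene's strand. Capitals mark the E-box CACGTG, the GC box GGGCGG and the CCAAT box CCAAT, on either strand, and GC boxes can overlap each other. ABCB8 lies at chr7:151028200-151028499 on the plus strand, ABCA1 at chr9:104928106-104928405 on the minus strand and ABCB1 at chr7:87600835-87601134 on the minus strand. ABCB1 has 2 annotated starts, of which the one shown holds CCAAT boxes and the other none of the 3 motifs.
ABCB8: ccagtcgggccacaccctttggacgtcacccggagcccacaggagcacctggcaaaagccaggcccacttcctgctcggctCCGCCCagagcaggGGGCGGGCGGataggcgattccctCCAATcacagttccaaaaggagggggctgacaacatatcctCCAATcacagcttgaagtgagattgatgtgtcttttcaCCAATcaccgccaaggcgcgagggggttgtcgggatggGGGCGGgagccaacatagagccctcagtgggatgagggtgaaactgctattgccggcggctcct
ABCA1: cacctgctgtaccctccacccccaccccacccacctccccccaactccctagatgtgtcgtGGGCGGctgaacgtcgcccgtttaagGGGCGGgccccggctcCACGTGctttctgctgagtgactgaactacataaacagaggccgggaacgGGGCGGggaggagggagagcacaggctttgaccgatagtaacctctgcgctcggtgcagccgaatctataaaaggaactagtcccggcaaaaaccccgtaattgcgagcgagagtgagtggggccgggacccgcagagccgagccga
ABCB1: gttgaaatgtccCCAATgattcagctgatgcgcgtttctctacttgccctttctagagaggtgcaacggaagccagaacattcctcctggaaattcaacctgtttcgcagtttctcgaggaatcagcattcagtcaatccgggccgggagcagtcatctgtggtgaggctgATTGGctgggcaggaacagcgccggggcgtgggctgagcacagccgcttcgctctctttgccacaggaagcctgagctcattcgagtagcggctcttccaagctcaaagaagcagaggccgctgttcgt

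The ABCB8 promoter held 4 GC boxes and 3 CCAAT boxes and no E-box. The ABCA1 promoter held 3 GC boxes and 1 E-box and no CCAAT box. The ABCB1 promoter shown held 2 CCAAT boxes and neither of the other motifs. A promoter was given for 33 of the 44 members, in 51 entries, of which 24 held a GC box, 12 a CCAAT box and 8 an E-box. Over all 35116 promoters in the table the shares were 45% for the GC box, 34.6% for the CCAAT box and 7.26% for the E-box. These matches are a description of the letters in the window and not of binding.

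Because IGF2BP proteins are known for their interplay with let-7, the let-7 match of the family was read as well. The mature let-7a-5p sequence follows with its seed, bases 2 to 8, in capitals, and then the 30 bases around each match in a member's longest annotated 3′ UTR, with the bases that pair with the seed in capitals.
hsa-let-7a-5p: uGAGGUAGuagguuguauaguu
ABCB9: tcaataaagtgtaCTACCTCttacccctaa
ABCC10: tcctctggggctCTACCTCtccacacttcc
ABCC2: cccctcgattgtCTACCTCgatcgtacttc
ABCC5: aattcagcgtagCTACCTCcagaccgtggt

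These 4 of the 24 members that passed the filter, 16.7%, held CTACCTC, against 1262 of 11245 genes that passed the filter and had a 3′ UTR annotated, 11.2%. None of the 4 passed the test between siI1 and siC cells. ABCB9, a lysosomal peptide transporter, averaged 17.1 ± 3.3 FPM in siI1 and 11.8 ± 3.2 FPM in siC cells. ABCC10, an organic anion exporter, averaged 21.3 ± 4.9 FPM in siI1 and 18.3 ± 2.2 FPM in siC cells. ABCC2, the exporter of bilirubin conjugates in liver, averaged 16.4 ± 4.0 FPM in siI1 and 21.5 ± 5.6 FPM in siC cells. ABCC5, an exporter of cyclic nucleotides, averaged 17.8 ± 1.3 FPM in siI1 and 23.0 ± 3.4 FPM in siC cells. The members with a let-7 match thus lay on both sides of the control level as fitted, within differences of -0.37 to 0.51 on the log2 scale. After a correction for GC content and length the differences were 0.09 in ABCB9, -0.17 in ABCC10, -0.10 in ABCC2 and -0.42 in ABCC5. None of them passed.

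Levels between genes were compared as mean FPM over the 12 libraries per kilobase of the longest transcript. ABCF1 and TAP1, outside the naming rule, were not ranked. They averaged 148 and 52.5 FPM, not divided by length, against 36.8 FPM for ABCF3. ABCF2, a soluble ABC protein without membrane spans, had the highest level of the 44 members at 51.8. ABCF3, of the same subfamily, followed at 12.9, the mitochondrial transporter ABCB8 at 12.1 and the drug exporter ABCC1 at 10.9. ABCC3 was the 11th at 2.66, ABCA1 the 22nd at 0.38 and ABCB1 the 24th at 0.295. ABCG2 stood at 0.147, and the lowest was ABCG8, which exports sterols in liver and gut, at 0.0253. This order pools groups that differ. In siI1 cells ABCC3 stood at 6.79 and ABCB8 at 5.48 per kilobase, while ABCB8 stood at 13.1 in siI2, 16.1 in siI3 and 13.7 in siC cells, above ABCF3 at 12.6, 12.3 and 12.4 in the same groups.

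**Figure D1:**
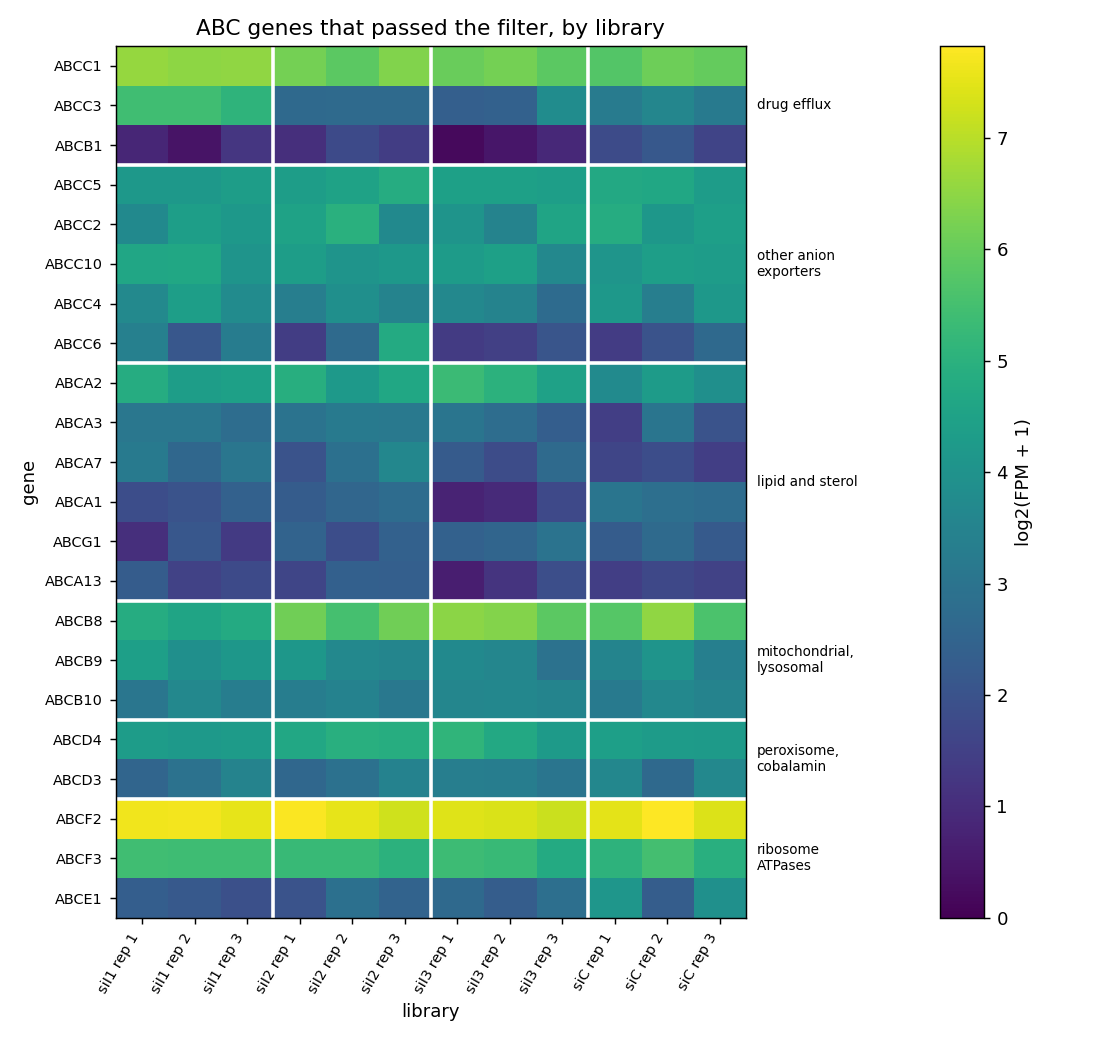
Level of 22 of the 24 ABC genes that passed the filter, as log2(FPM + 1), with a row per gene, grouped by role, and a column per library, siI1, siI2 and siI3 before siC. ABCF2 is high in all 12 libraries, and ABCC3 stands out in the 3 siI1 libraries.

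Of the 4 drug efflux members, ABCC3 changed most between groups. ABCC3, on chromosome 17, is an exporter of organic anions and of glucuronide conjugates. Its level was 42.1, 41.6 and 32.8 FPM in siI1 libraries, 5.32, 5.51 and 5.58 FPM in siI2 libraries, 4.21, 4.45 and 12.9 FPM in siI3 libraries, and 8.58, 11.1 and 8.12 FPM in siC libraries. Every siI1 library lay above every library of the other groups. In siI3, replicate 3 lay above the siC libraries and replicates 1 and 2 below them.

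ABCC3 averaged 38.8 ± 5.21 FPM in siI1 and 9.27 ± 1.61 FPM in siC cells (SD, n = 3 each), 419% of the control level. On the log2(FPM + 1) scale, on which every fold change here is given, it rose by 1.96 with a standard error of 0.32 (limma, Benjamini-Hochberg adjusted p = 0.0017 over all 13782 genes). With GC content and length corrected for, the difference was 1.68 and still passed the threshold of 0.05. It passed with each of the 12 libraries left out in turn, with differences of 1.88 to 2.08. Against siC replicate 2 alone the difference was 1.71.

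ABCC3 also differed between siI1 cells and the other knockdowns. It averaged 5.47 ± 0.132 FPM in siI2 and 7.20 ± 4.97 FPM in siI3 cells. Its level in siI1 cells was higher by 2.61 than in siI2 (adjusted p = 0.000298) and by 2.43 than in siI3 (adjusted p = 0.000129), and both differences passed with each library left out. Against siC the change was -0.66 in siI2 (adjusted p = 0.228) and -0.47 in siI3 cells (adjusted p = 0.325). Without siI3 replicate 3 the difference in siI3 was -0.94 and passed.

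ABCC1, on chromosome 16, the multidrug resistance protein that exports glutathione conjugates, was the most abundant drug efflux member per length. It had 95.7, 88.9 and 90.9 FPM in siI1 libraries, 71.8, 57.1 and 80.5 FPM in siI2 libraries, 64.5, 71.5 and 57.4 FPM in siI3 libraries, and 51.7, 67.6 and 61.9 FPM in siC libraries. The siI1 libraries lay above all others, by less than in ABCC3. The difference between siI1 and siC was 0.60 with a standard error of 0.18, or 152% of the control level, and did not pass (limma adjusted p = 0.0524). It passed by edgeR and DESeq2 on the recovered reads, and in limma with either other scaling, at a mean of at least 5 FPM, with a pseudocount of 4 and with only the 6 libraries compared. It also passed without siI2 replicate 2, siI2 replicate 3, siI3 replicate 3 or siC replicate 2, and over the libraries left out in turn its adjusted p was 0.0269 to 0.238. After the GC correction it was 0.38 and did not pass, and against siC replicate 2 alone it was 0.44. In siI2 and siI3 the differences from siC were 0.20 and 0.10.

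ABCB1, on chromosome 7, encodes P-glycoprotein, the multidrug pump. It was scarce in these cells, with 5, 2 and 8 reads in siI1 libraries, 5, 13 and 7 in siI2 libraries, 1, 3 and 5 in siI3 libraries, and 21, 32 and 15 in siC libraries. In the same order these were 0.776, 0.32 and 1.37 FPM in siI1, 1.06, 2.39 and 1.70 FPM in siI2, 0.14, 0.381 and 0.886 FPM in siI3, and 2.43, 3.45 and 2.03 FPM in siC. The 3 siI1 and the 3 siI3 libraries lay below the lowest siC library, while siI2 overlapped siC.

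ABCB1 passed the filter on low counts only through the siC libraries, where it was highest, and would not have been tested without that group, so its differences from siC are a description and its p is no support for them. The difference between siI3 and siC cells was -1.32 with a standard error of 0.34 (limma adjusted p = 0.0264), with means of 0.469 ± 0.381 FPM in siI3 and 2.64 ± 0.732 FPM in siC cells, or 17.8%. The pseudocount of 1 FPM makes this log2 difference smaller than the ratio of the means. GC-corrected, the difference was -0.86 and did not pass. It did not pass either without siI3 replicate 1, siI3 replicate 2, siC replicate 1 or siC replicate 3, and over the libraries left out in turn the adjusted p was 0.0127 to 0.113. It was -1.17 without siC replicate 2, which passed, and -1.63 against siC replicate 2 alone. In siI1 the difference was -1.02 (adjusted p = 0.0685) and in siI2 -0.43 (adjusted p = 0.457).

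ABCG2, on chromosome 4, the breast cancer resistance protein, did not pass the filter and was not tested. It had 4, 4 and 6 reads in siI1 libraries, 0, 5 and 3 in siI2 libraries, 3, 2 and 5 in siI3 libraries, and 10, 3 and 7 in siC libraries. These counts overlapped between all groups, and no difference is read from them. In siI1 cells ABCC3 thus rose, and ABCC1 lay above the other groups without passing the test. ABCB1 lay below the controls, also without passing, and this is a description only, as it was tested only through the siC libraries. Whether the drug efflux members moved together is not read from these values.

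**Figure D2:**
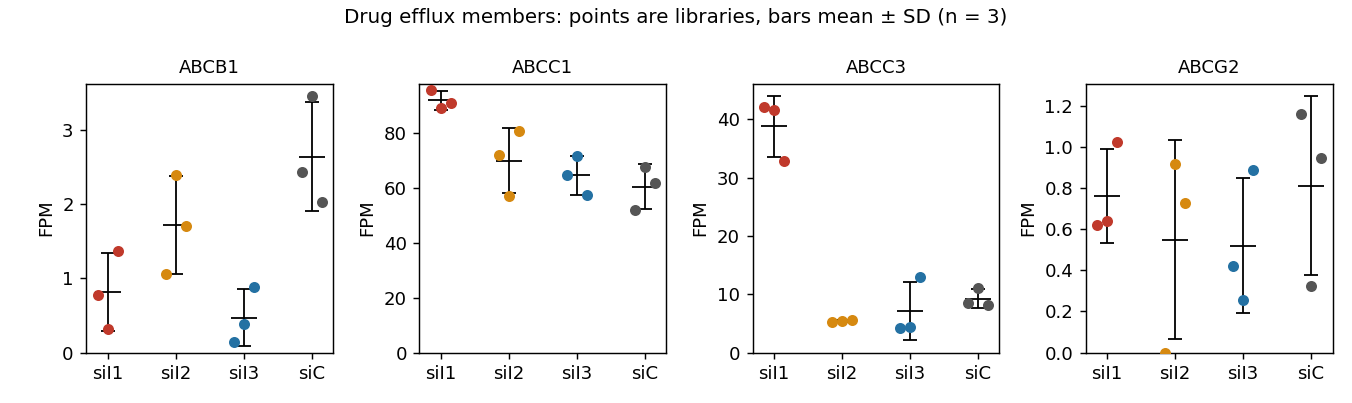
FPM of ABCC3, ABCC1, ABCB1 and ABCG2 in each library, with siI1, siI2 and siI3 left of siC, points for libraries and bars for the group mean with its SD (n = 3). The siI1 points of ABCC3 sit between 32.8 and 42.1 FPM, above all others, and ABCB1 and ABCG2 lie below 4 FPM everywhere.

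Of 9 other exporters of organic anions and nucleotides, or members placed with them, 5 passed the filter and none passed limma's test in any of the 6 comparisons between groups. By edgeR's quasi-likelihood test none passed either, and by DESeq2 ABCC6 passed in siI2 against siI3 cells. They were ABCC2, ABCC4, ABCC5, ABCC6 and ABCC10, and their median difference was 0.06 in siI1, -0.06 in siI2 and -0.40 in siI3 cells against siC. ABCC4, an exporter of cyclic nucleotides and prostaglandins, averaged 14.9 FPM in siI1, 11.1 in siI2, 9.24 in siI3 and 14.4 FPM in siC cells. ABCC6, whose loss causes pseudoxanthoma elasticum, had 26.4 FPM in siI2 replicate 3 and 1.70 and 5.51 FPM in the other siI2 libraries. Reads of ABCC6 may be shared with its near-identical pseudogenes, so its counts are uncertain. ABCC13, an annotated pseudogene that did not pass the filter, had 24 reads in siI1 replicate 3, 6 in siI3 replicate 3, at most 2 in the other siI1 and siI3 libraries and 0 in every siI2 and siC library.

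Among the lipid and sterol transporters, 6 of 17 passed the filter, and 4 of these passed limma's test in at least 1 of the 6 comparisons. So did 9 of the 24 members tested, 37.5%, and 20.1% of all genes tested. The 9 include ABCB1, which passed the filter only through the siC libraries, so its call is no support for the higher share. ABCA1, on chromosome 9, exports cholesterol and phospholipids to apolipoprotein A-I. It had 2.64, 3.04 and 4.44 FPM in siI1 libraries, 3.83, 4.96 and 5.82 FPM in siI2 libraries, 0.702, 0.889 and 2.30 FPM in siI3 libraries, and 7.19, 6.25 and 5.82 FPM in siC libraries. The siI3 libraries lay below all others, and the siI1 libraries lay between siI3 and siC.

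ABCA1 fell by 1.75 in siI3 against siC cells with a standard error of 0.31 (limma adjusted p = 0.00625), with means of 1.30 ± 0.876 FPM in siI3 and 6.42 ± 0.699 FPM in siC cells, or 20.2%. GC-corrected, it was -1.46 and passed, and it passed with each library left out, at differences of -2.05 to -1.57. Against siC replicate 2 alone it was -1.72. ABCA1 was also higher in siI2 than in siI3 cells by 1.4 (adjusted p = 0.0259), a difference that did not pass without any 1 of the siI2 libraries, siI3 replicate 1 or siI3 replicate 2, with adjusted p of 0.00767 to 0.131 over the libraries left out. Between siI1 and siI3 it was 0.97 (adjusted p = 0.0715), and without siI3 replicate 3 it was 1.27 and passed.

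ABCG1, on chromosome 21, which exports cholesterol to high-density lipoprotein, had 1.09, 3.36 and 1.54 FPM in siI1 libraries, 4.68, 2.57 and 4.36 FPM in siI2 libraries, 4.35, 4.83 and 6.91 FPM in siI3 libraries, and 3.83, 5.5 and 3.65 FPM in siC libraries. Each siI1 library lay below each siI3 and siC library. Against siC the difference in siI1 was -0.89 (limma adjusted p = 0.0976), and without siI1 replicate 2 it was -1.19 and passed. The level in siI1 was lower than in siI3 by -1.14 on the log2 scale with a standard error of 0.33 (limma adjusted p = 0.0461), or 37.2%. This passed in 4 of 12 fits with a library left out, with adjusted p of 0.0236 to 0.205: it did not pass without siI1 replicate 1 or 3, siI2 replicate 1, any siI3 library, or siC replicate 1 or 3. ABCA1 and ABCG1, both exporters of cholesterol, were thus not lowest in the same knockdown: by group means ABCA1 was lowest in siI3 cells and ABCG1 in siI1 cells.

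ABCA2, on chromosome 9, a lysosomal sterol and lipid transporter, had 27.6, 19.7 and 20.9 FPM in siI1 libraries, 29, 18 and 24.2 FPM in siI2 libraries, 39.7, 31.4 and 21.1 FPM in siI3 libraries, and 12.4, 18.5 and 13.9 FPM in siC libraries. It rose by 0.96 in siI3 against siC cells with a standard error of 0.26 (limma adjusted p = 0.0307), or 205% of the control level. The siI3 libraries lay above the siC libraries without overlap. The difference was 0.54 after the GC correction, which did not pass, and 0.65 against siC replicate 2 alone. It did not pass without siI3 replicate 1 or 2 or siC replicate 1 or 3, with adjusted p of 0.00832 to 0.151 over the libraries left out.

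ABCA7, on chromosome 19, a phospholipid transporter known from Alzheimer disease genetics, had 8.39, 5.12 and 7.35 FPM in siI1 libraries, 2.98, 6.43 and 11.4 FPM in siI2 libraries, 3.79, 2.54 and 5.49 FPM in siI3 libraries, and 2.09, 2.59 and 1.76 FPM in siC libraries. It rose by 1.32 in siI1 against siC cells with a standard error of 0.37 (limma adjusted p = 0.0395), or 324%. The siC libraries were low in ABCA7 as a group, and the siI1 and siI2 libraries did not overlap them. The difference was 0.92 after the GC correction, which did not pass, and 1.13 against siC replicate 2 alone. It did not pass without siI1 replicate 1 or 3, siI3 replicate 1, or siC replicate 1 or 3, with adjusted p of 0.0207 to 0.169. The remaining members that passed the filter here were ABCA3, which moves surfactant lipids in lung, and ABCA13, and neither passed a test.

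Of the mitochondrial and lysosomal members, 4 of 5 passed the filter. ABCB8, on chromosome 7, sits in the inner mitochondrial membrane, where it is linked to iron export and to a potassium channel. It had 27.5, 22.7 and 26.8 FPM in siI1 libraries, 69.0, 44.8 and 69.6 FPM in siI2 libraries, 87.6, 81.3 and 56.9 FPM in siI3 libraries, and 53.0, 91.3 and 47.9 FPM in siC libraries. All 3 siI1 libraries lay below all others.

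ABCB8 fell by 1.23 in siI1 against siC cells with a standard error of 0.26 (limma adjusted p = 0.009), with means of 25.7 ± 2.59 FPM in siI1 and 64.1 ± 23.7 FPM in siC cells, or 40.1%. The control mean carried siC replicate 2, whose level was the highest of all libraries, and without it the difference was -0.95 and passed. Against siC replicate 2 alone it was -1.80, and after the GC correction it was -1.62 and passed. ABCB8 passed with each library left out. It was lower in siI1 than in siI3 cells by -1.50 on the log2 scale (adjusted p = 0.00134), which passed with each library left out. It was also lower than in siI2 cells, by -1.20 (adjusted p = 0.0178), which did not pass without any 1 of the siI1 libraries, siI2 replicate 1 or siI2 replicate 3, with adjusted p of 0.00653 to 0.0878.

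ABCB10, a transporter of the inner mitochondrial membrane tied to heme synthesis, averaged 9.29 ± 2.1 FPM in siI1, 8.94 ± 1.2 FPM in siI2, 11.1 ± 0.4 FPM in siI3 and 10.0 ± 1.7 FPM in siC cells and passed no test.

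Of the 4 peroxisomal and cobalamin members, 3 passed the filter. ABCD4, which acts in lysosomal cobalamin release, averaged 18.4 ± 0.6 FPM in siI1, 27.5 ± 2.3 FPM in siI2, 26 ± 7.8 FPM in siI3 and 19.2 ± 1.2 FPM in siC cells. Neither ABCD4 nor ABCD3, a transporter of the peroxisome membrane, passed a test.

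All 3 ribosome-associated members passed the filter, and none passed limma's test. By edgeR and by DESeq2 on the recovered reads ABCE1 passed in siI1 against siC cells. ABCE1, on chromosome 4, splits ribosomes after termination. It had 4.04, 3.52 and 2.74 FPM in siI1 libraries, 2.98, 6.43 and 4.61 FPM in siI2 libraries, 5.33, 3.94 and 6.20 FPM in siI3 libraries, and 16.2, 3.99 and 14.3 FPM in siC libraries. Thus siC replicate 2 lay among the knockdown libraries and the other siC libraries far above them. The difference from siC was -1.32 in siI1 (adjusted p = 0.052), -1.0 in siI2 (adjusted p = 0.16) and -0.85 in siI3 cells (adjusted p = 0.165), and in siI1 it was -0.74 after the GC correction. Without siC replicate 2 the difference in siI1 was -1.89 and passed. It passed as well without siI2 replicate 2 or siI3 replicate 3, with adjusted p of 0.00204 to 0.261 over the libraries left out. Exons of ABCE1 overlap those of OTUD4 on the other strand, which averaged 7.97 FPM against 6.20 FPM for ABCE1, and the strand setting of the counting was not given, so reads of the pair cannot be told apart.

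ABCF2 averaged 196 ± 10.8 FPM in siI1, 185 ± 33.3 FPM in siI2, 161 ± 14.2 FPM in siI3 and 192 ± 29.8 FPM in siC cells. ABCF3, whose relative in yeast acts in translation control by the stress kinase GCN2, averaged 41.3 ± 0.625 FPM in siI1, 35.8 ± 3.27 FPM in siI2, 34.8 ± 7.21 FPM in siI3 and 35.2 ± 7.29 FPM in siC cells. Neither passed the test in any comparison. ABCF2 has pseudogene copies in the table, which makes its counts uncertain.

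**Figure D3:**
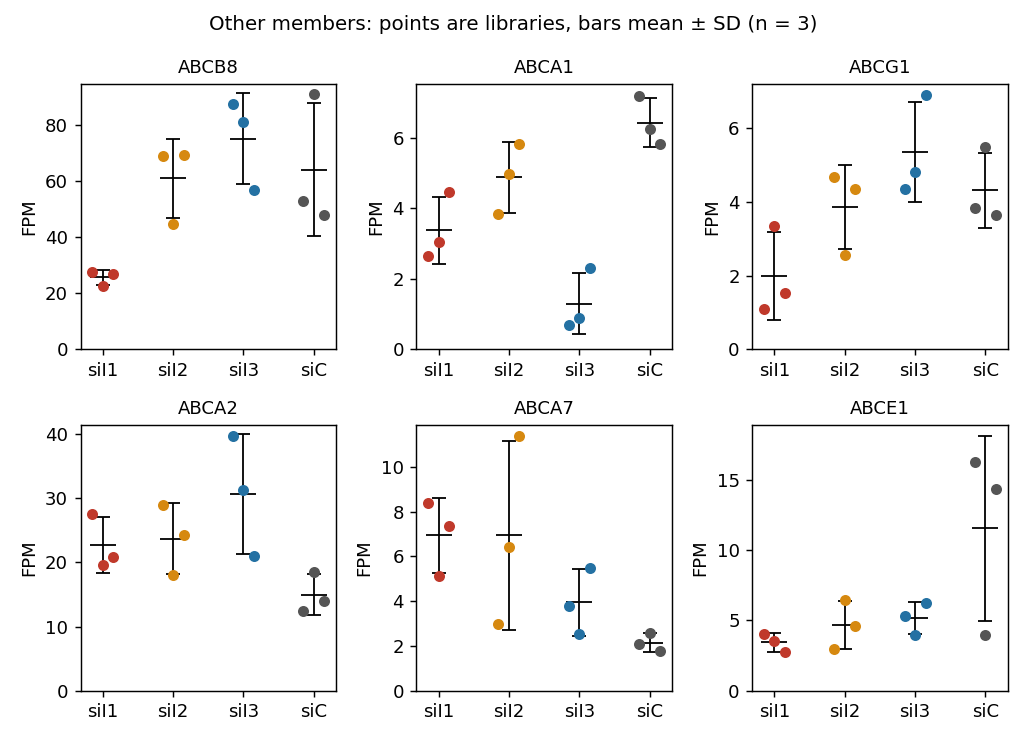
FPM of ABCB8, ABCA1, ABCG1, ABCA2, ABCA7 and ABCE1 in each library, with siI1, siI2 and siI3 left of siC, points for libraries and bars for the group mean with its SD (n = 3). All siI1 points of ABCB8 lie at or below 27.5 FPM, all siI3 points of ABCA1 at or below 2.30 FPM, and siC replicate 2 of ABCE1 lies at 3.99 FPM, among the knockdowns.

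Counted over the family, 4 of the 24 members passed the test in siI1 against siC cells, 3 of them higher, ABCC3 and ABCA7 among them, and ABCB8 lower. Over all 13782 genes tested, 3.77% were higher and 4.42% lower in this comparison. The median difference of the 24 members was 0.05, against -0.05 over all genes. With the GC correction, ABCC3 was higher and ABCB8 lower and no other member passed. The count was 7 without siC replicate 2, 6 without siI2 replicate 2 or siI3 replicate 3, and 2, ABCC3 and ABCB8, without siI1 replicate 1 or 3, siI3 replicate 1, or siC replicate 1 or 3.

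In siI2 against siC cells none of the 24 members passed limma's test, where 0.573% of all genes were higher and 0.936% lower. At an unadjusted p under 0.05 there were 6 of the 24 members, and 22.8% of all genes. No member passed by edgeR's quasi-likelihood test, and by DESeq2 ABCA7 alone passed. Without siC replicate 2 there were 3 calls, ABCA3 and ABCE1 among them, and without siI2 replicate 2 there was 1. The median difference was -0.05, against -0.09 over all genes.

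In siI3 against siC cells 3 of the 24 members were lower and ABCA2 was higher, with 8.29% of all genes lower and 2.3% higher. Among the lower were ABCA1 and the scarce ABCB1, which passed the filter only through the siC libraries, so its p is no support. The median difference was -0.14, against -0.05 over all genes. With the GC correction ABCA1 alone passed. ABCA1 was also the 1 member left without siI3 replicate 1 or 2 or siC replicate 1 or 3, and 6 members passed without siC replicate 2. These 3 comparisons share the siC libraries, so a gene set apart in a control library moves in all of them.

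Between knockdowns the siC libraries do not enter the difference. In siI1 against siI2 cells ABCC3 was higher and ABCB8 lower, with 1.63% of all genes higher and 0.769% lower. In siI1 against siI3 cells ABCC3 was higher and ABCB8 and ABCG1 were lower, with 4.57% of all genes higher and 2.47% lower. With the GC correction 5 members passed, and ABCB9 was among those higher. Only ABCC3 and ABCB8 passed by edgeR. In siI2 against siI3 cells ABCA1 was higher, with 1.26% of all genes higher and 0.74% lower. The median difference of the 24 members was -0.04 in siI1 against siI2, where that of all genes was 0.05. It was 0.29 in siI1 against siI3, where that of all genes was 0.01, and 0.16 in siI2 against siI3, where that of all genes was -0.03.

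**Figure D4:**
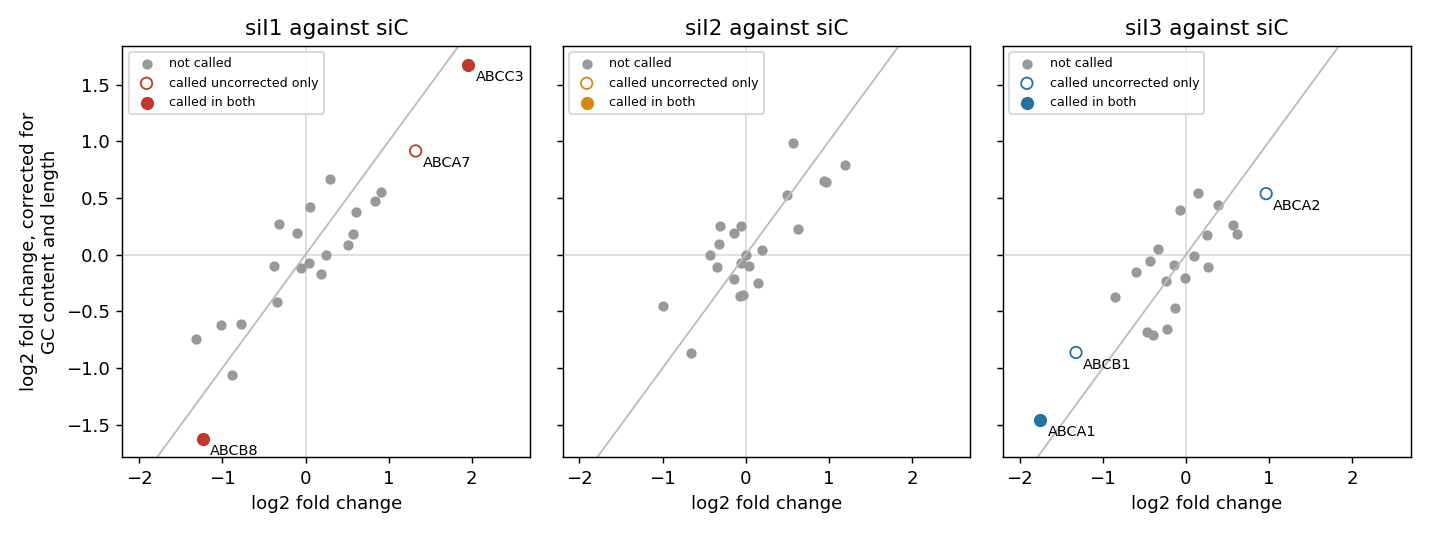
Log2 difference from siC of 22 of the 24 members as fitted (horizontal axis) and after the correction for GC content and length (vertical axis), with a panel for siI1, siI2 and siI3. ABCC3 and ABCB8 stay far from 0 on both axes in siI1, at 1.96 and 1.68 and at -1.23 and -1.62, and ABCA1 in siI3, at -1.75 and -1.46.

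The transcripts of the members that changed against siC differed in GC content. It was 55.8% in ABCC3, 60.4% in ABCB8 and 45.5% in ABCA1, which passed with the correction. It was 43.1% in ABCB1, which was lower in siI3 cells, and 63.7% in ABCA2 and 64.7% in ABCA7, which were higher in a knockdown. These 3 members passed only without the correction. The correction itself acts by GC content and length, so their GC contents are no separate evidence on these calls. The part of the tilt of siC replicates 1 and 3 in their calls was not tested.

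Genes that act with the family were read as lists. Beside each list's counts stand the shares over all genes tested: against siC, 3.77% were higher and 4.42% lower in siI1, 0.573% and 0.936% in siI2, and 2.3% and 8.29% in siI3 cells. Of 20 regulators of ABC genes that passed the filter, 3 were higher and none lower in siI1 against siC cells. Among them SREBF2, the regulator of cholesterol synthesis, averaged 115 ± 12.3 FPM in siI1 and 52.4 ± 10.0 FPM in siC cells, and rose by 1.13 (adjusted p = 0.00946). NR1H3, the liver X receptor that drives ABCA1 and ABCG1, rose by 0.81 (adjusted p = 0.0473) and did not pass after the GC correction. In siI2 cells 1 was higher and 1 lower: AHR, the receptor of dioxins that drives ABCG2, fell by 1.4 (adjusted p = 0.0142). In siI3 cells AHR alone passed, and fell by 1.19 (adjusted p = 0.0155). Neither fall of AHR passed after the GC correction.

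Of 21 genes of glutathione synthesis and conjugation tested, which make substrates of the ABCC pumps, 3 were higher and none lower in siI1 (3.77% and 4.42% of all genes), 1 was higher in siI2 (0.573%), and 1 was higher and 1 lower in siI3 cells (2.3% and 8.29%) against siC. GGT5, which splits glutathione conjugates outside the cell, averaged 29.9 ± 6.44 FPM in siI1, 27.5 ± 4.51 FPM in siI2, 4.92 ± 1.62 FPM in siI3 and 8.55 ± 3.02 FPM in siC cells. It rose by 1.72 in siI1 (adjusted p = 0.00208) and by 1.62 in siI2 (adjusted p = 0.011) against siC. GSTZ1, a glutathione transferase of tyrosine breakdown, averaged 38.3 ± 1.24 FPM in siI1 and 14.4 ± 2.76 FPM in siC cells and rose by 1.37 (adjusted p = 0.00104). GSTM3, another transferase, fell by 1.17 in siI3 against siC cells (adjusted p = 0.0201).

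Of 14 genes of drug uptake and other drug transporters tested, 2 were lower in siI1 against siC (4.42% of all genes). None passed the test in siI2, and 1 was higher and 1 lower in siI3 cells (2.3% and 8.29%). SLCO4A1, an organic anion uptake carrier, averaged 26.5 ± 4.67 FPM in siI1, 67.6 ± 14.6 FPM in siI2, 110 ± 23.4 FPM in siI3 and 60.8 ± 14.2 FPM in siC cells. It fell by 1.16 in siI1 (adjusted p = 0.00706) and rose by 0.85 in siI3 (adjusted p = 0.0318) against siC, and the rise was 0.48 after the GC correction and did not pass. It was lower in siI1 than in siI3 cells by -2.00 (adjusted p = 4.17e-05). SLC31A1, the copper carrier that also takes up cisplatin, averaged 14.4 ± 6.42 FPM in siI1, 14.2 ± 5.99 FPM in siI3 and 40.4 ± 4.68 FPM in siC cells, and fell by 1.53 in siI1 (adjusted p = 0.0124) and by 1.51 in siI3 (adjusted p = 0.0171).

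Of 17 partners of cholesterol efflux tested, 2 were higher and 2 lower in siI1 against siC (3.77% and 4.42% of all genes). None passed the test in siI2, and 3 were lower in siI3 cells (8.29%). NCEH1, which frees cholesterol from its esters, fell by 1.42 in siI1 (adjusted p = 0.00139), and so did SOAT1, which makes the esters, by 1.42 (adjusted p = 0.00234). NPC1, which moves cholesterol out of lysosomes, averaged 21.1 ± 1.51 FPM in siI3 and 35.3 ± 2.42 FPM in siC cells and fell by 0.71 (adjusted p = 0.0268). CAV1, the coat protein of caveolae, averaged 565 ± 57.3 FPM in siI1, 634 ± 38.5 FPM in siI2, 282 ± 23.0 FPM in siI3 and 460 ± 55.1 FPM in siC cells. It fell by 0.70 in siI3 against siC (adjusted p = 0.0268), a difference of -0.33 after the GC correction that did not pass, and was higher in siI1 and siI2 than in siI3 by 1.0 and 1.17.

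TAP is the ABC transporter that feeds MHC class I molecules. Of its 16 peptide loading partners, 2 were higher in siI1 against siC (3.77% of all genes). None passed the test in siI2, and 7 were lower in siI3 cells (8.29%). The median difference in siI3 was -0.84, against -0.05 over all genes. PSMB9, an immunoproteasome subunit, averaged 43.0 ± 8.67 FPM in siI1 and 16.6 ± 1.44 FPM in siC cells and rose by 1.31 (adjusted p = 0.0148). TAPBPL, a peptide editor, rose by 1.29 (adjusted p = 0.0124). In siI3, PSME1, a proteasome activator subunit, averaged 28.3 ± 5.74 FPM, against 74.5 ± 16.5 FPM in siC cells, and fell by 1.36 (adjusted p = 0.00964). ERAP1, which trims peptides, fell by 0.92 (adjusted p = 0.0096), and this did not pass after the GC correction. In siI1 against siI3 cells, 9 of the 16 were higher (4.57% of all genes) and none lower, among them PSMB9 by 2.45 (adjusted p = 6.45e-05).

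The TAP subunits themselves are ABC proteins outside the naming rule. TAP1 averaged 66.3 ± 10.6 FPM in siI1, 59.2 ± 7.21 FPM in siI2, 36.9 ± 13.9 FPM in siI3 and 47.8 ± 14.9 FPM in siC cells, and TAP2 averaged 4.83 ± 3.26 FPM in siI1, 2.24 ± 1.57 FPM in siI2, 1.99 ± 1.83 FPM in siI3 and 5.92 ± 1.76 FPM in siC cells. Neither passed the test in any of the 6 comparisons. ABCF1, listed in the table under a suffixed name, averaged 143 FPM in siI1, 148 in siI2, 156 in siI3 and 143 FPM in siC cells.

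Of 20 genes of peroxisomal fatty acid oxidation and import tested, 1 was higher in siI1 against siC (3.77% of all genes). None passed the test in siI2, and 2 were lower in siI3 cells (8.29%). CRAT, carnitine acetyltransferase, rose by 0.79 in siI1 (adjusted p = 0.0448) and did not pass after the GC correction. PEX19, which brings proteins to the peroxisome membrane, fell by 1.63 in siI3 (adjusted p = 0.0125). Of 22 genes of mitochondrial iron-sulfur and heme synthesis tested, none passed in siI2 or siI3 cells. HSPA9, a mitochondrial chaperone, alone was lower in siI1 (4.42% of all genes). Its difference of -0.88 (adjusted p = 0.0301) was -0.50 after the GC correction and did not pass. Of 21 partners of ABCE1 and the ABCF proteins in ribosome recycling and translation control, 4 were lower in siI1 (4.42% of all genes) and 3 in siI3 cells (8.29%). None passed the test in siI2 cells, and none was higher in siI1 or siI3. EIF5, an initiation factor, averaged 28.6 ± 1.98 FPM in siI1 and 74.5 ± 20.1 FPM in siC cells and fell by 1.31 (adjusted p = 0.00354), and it passed after the GC correction. After it, EIF2S1, the alpha subunit of initiation factor eIF2, and ETF1, the release factor, no longer passed in siI1, nor did ETF1 and EIF2S3, the gamma subunit of eIF2, in siI3 cells. The median difference of this list from the shared siC libraries was -0.43 in siI1, -0.50 in siI2 and -0.43 in siI3 cells, against -0.05, -0.09 and -0.05 over all genes. It was 0.05 in siI1 against siI2, -0.07 in siI1 against siI3 and -0.17 in siI2 against siI3. Of 2 channel partners of ABCC8 and ABCC9, 1 was tested and did not pass. These lists hold few genes, and no list was tested as a whole.

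The differences from siC of the list genes named above passed without siC replicate 2. Those of SREBF2, GGT5, GSTZ1, GSTM3, SLC31A1, NCEH1, SOAT1, NPC1, PSMB9, TAPBPL, PSME1, PEX19 and EIF5, and the fall of SLCO4A1 in siI1, passed after the GC correction. With each library left out, those of GSTZ1, GGT5, SLCO4A1, NCEH1, SOAT1 and EIF5 in siI1 passed every time. The others did not pass without siC replicate 1, and all of them but that of SREBF2 also not without siC replicate 3, with limma adjusted p of up to 0.238.

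The 20 members that did not pass the filter averaged between 0.132 and 1.12 FPM over the 12 libraries. They had at most 24 reads in any library and 10 to 89 reads in all libraries together. They comprised ABCG2, 11 of the lipid and sterol transporters, 4 of the exporters, ABCB6, ABCD2 and the channel regulators ABCC8 and ABCC9. Differences in these genes were not tested, and none is read from such low counts.

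The authors' deposited table gives its own fold changes and false discovery rates, positive where the knockdown was higher. In the authors' deposited table, 2 members were below a rate of 0.05 in siI1 cells, ABCC3 with 2.06 and ABCB8 with -1.32 on the log2 scale, none in siI2 cells, and 2 in siI3 cells, ABCA1 with -2.36 and ABCB1 with -2.53. ABCA7 in siI1 and ABCA2 in siI3 cells were called in limma but not in the authors' deposited table.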

How the data were processed

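RNA of 12 libraries from ES-2 cells, 3 per siRNA group, was depleted of ribosomal RNA, fragmented, primed with random hexamers and sequenced in pools of up to 10 libraries, per the labels' protocols. The submitters' processing notes name cutadapt 1.6, TopHat2 2.0.13, the genome build hg19, featureCounts 1.4.6 and edgeR 3.12. The sources used here give no strand setting, annotation release or filter. The deposited FPM values are a signal per gene that the authors scaled to library size, with a further factor per library, and did not divide by length. Within a library, 100% of values were whole multiples of 1 read within a tolerance of 0.01, so read counts were recovered, with 3274590 to 11110357 reads per library. The log2 fold changes and FDR of the authors' deposited table, which give p-values adjusted by the authors, were copied unchanged.

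FPM was taken as log2(FPM + 1). Genes were kept by edgeR 4.0.16 filterByExpr with a minimum count of 10, and tested over all 12 libraries with limma 3.58.1 (trend) in R 4.3.3, with Benjamini-Hochberg adjustment over 13782 genes and a threshold of 0.05. The unit was not raw counts, so the count tests, edgeR's quasi-likelihood test and DESeq2 1.42.0 on the recovered reads, were alternatives. GC content and length were corrected by loess with a span of 0.5 for the 13361 genes, 96.9%, that had both. Transcripts, exon overlaps and 3′ UTRs were from GENCODE 29 on another build than the reads, so no coordinate of the counts is printed; promoters and miRNAs were from RefSeq, GRCh38.p14. Members named by rule passed the test in a comparison, were among the 4 drug efflux genes or averaged at least 20 FPM in a group; from each list, up to 3 called genes per comparison with the smallest adjusted p were eligible. The filter and the limma fit of siI1 against siC were tested on simulated counts, drawn without the GC tilt seen in siC. The GC correction, the count tests and the sequence steps were not tested in this way. The members, their roles and the gene lists were chosen with earlier results of these data known. Some genes are counted in the totals but not reported here.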

Additional observations from a re-analysis of the deposited data

How the results depend on the processing

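The 96 results of 16 of the 24 tested members were recomputed under 22 to 25 alternatives each, 2325 values in all: a single control does not enter differences between knockdowns, and some members are below 5 FPM. Of the 14 called results, 263 values stayed called and 76 did not pass. Of the others, 1967 stayed uncalled and 19 passed. These totals include the fits with siC replicate 2 as the only control. No value changed sign where the result was called in the report or in the alternative. Changes of sign between uncalled values were not counted, and some occurred. For example, ABCB8 in siI2 against siC was -0.04 in the report and 0.25 without siC replicate 2. Members called in siI1 against siC, 4 in the report, were 2 with no filter, 7 with only the 6 libraries compared, 2 with the GC correction, and 2 to 7 with a library left out. In siI3 against siC, 4 in the report, they were 1 with no filter, 2 at a mean of at least 5 FPM, 1 with the GC correction, and 1 to 6 with a library left out. In siI2 against siC, 0 in the report, they were 1 by DESeq2 and 0 to 3 with a library left out, where 3 were called without siC replicate 2. In siI1 against siI2, 2 in the report, they were 1 with no filter and 1 to 2 with a library left out. In siI1 against siI3, 3 in the report, they were 5 with the GC correction, 2 by edgeR and 2 to 3 with a library left out. In siI2 against siI3, 1 in the report, they were 2 by DESeq2, 0 with no filter, at a mean of at least 5 FPM and with only the 6 libraries compared, and 0 to 1 with a library left out. No filter adds genes to the adjustment. A single control leaves fewer samples, so no count of members is given for it. The part of either in the changed values was not tested, nor was any other cause.

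Same-numbered libraries did not deviate together in every pair (correlations of -0.455 to 0.447), so the numbers were not taken as pairs. A replicate block gave 2 members in siI1 against siC, 0 in siI2 and 4 in siI3 against siC, 2 in siI1 against siI2, 2 in siI1 against siI3 and 1 in siI2 against siI3; with the GC correction it gave 2 in siI1 and 1 in siI3 against siC. Not every library correlated best with its own number. ABCG2, near the 3-read limit, was not tested, and no difference is read from it.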
